A study of Mus musculus with 3 samples.

Results

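Regulatory T cells of mouse blood were taken here as Foxp3+ T cells, since Foxp3 encodes the transcription factor that defines the lineage. A droplet barcode was counted when it had at least 200 detected genes, at most 7.5% mitochondrial and under 20% haemoglobin transcripts, at least 1 Foxp3 UMI (unique molecular identifier, a tag that marks 1 captured transcript), and at least 1 UMI of the CD3 genes Cd3d, Cd3e and Cd3g. It also had to hold no UMI of the CD8 genes Cd8a and Cd8b1 and at most 1 UMI of the B-cell receptor genes Cd79a and Cd79b. The cells were thus chosen by their Foxp3, CD3, CD8 and Cd79 UMIs, and those values support nothing below. In all, 187 of 44212 barcodes met the rule, out of 28333 that passed the quality limits. PBMCs (peripheral blood mononuclear cells) of female C57BL/6 mice were profiled by droplet single-cell RNA sequencing in 3 libraries, 1 per group. The young library came from mice of 8 weeks and the aged library from mice of 16 months, and the aged-GA library came from mice of 16 months given glycyrrhizic acid (GA), a saponin of licorice root, through the tail vein for 1 month. By the study's methods the control group received the buffer PBS by the same route, and whether the young mice were injected is not given in the sources used here. By the same methods the young mice were bought in and the aged mice were kept in the laboratory. A figure legend of the study gives several mice per group, but how their blood was divided over the library is not described. With 1 library per group, a difference between groups had no replicate check, so it is given as a ratio with a 95% interval that covers counting error only, and age, treatment, rearing and library preparation cannot be told apart from the library itself.

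Regulatory T cells restrain other immune cells and maintain tolerance to self. They depend on interleukin 2, which they bind through a receptor containing CD25, the product of Il2ra, and they carry large amounts of CTLA-4, which removes costimulatory ligands from antigen-presenting cells. Helios, encoded by Ikzf2, stabilizes the lineage, and the cells divide broadly into a resting pool that recirculates through lymphoid organs with Ccr7, and an effector pool that enters tissues.

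Since Il2ra, Ctla4 and Foxp3 carry the identity of these cells, the 250 bases before the start of each are shown from the RefSeq promoter table of build GRCm38.p6, all on the + strand, at chr2:11642542-11642791, chr1:60908775-60909024 and chrX:7579426-7579675. An entry was matched for 3 of the 4 marker genes, and for Foxp3 the first of 2 windows is shown. Capitals mark the core letters bound by NFAT, a factor activated through the T cell receptor.
Il2ra: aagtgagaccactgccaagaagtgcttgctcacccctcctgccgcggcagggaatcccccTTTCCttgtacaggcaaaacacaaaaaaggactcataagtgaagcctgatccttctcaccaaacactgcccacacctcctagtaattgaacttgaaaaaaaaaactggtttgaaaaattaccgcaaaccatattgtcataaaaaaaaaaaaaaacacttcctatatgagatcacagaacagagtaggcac
Ctla4: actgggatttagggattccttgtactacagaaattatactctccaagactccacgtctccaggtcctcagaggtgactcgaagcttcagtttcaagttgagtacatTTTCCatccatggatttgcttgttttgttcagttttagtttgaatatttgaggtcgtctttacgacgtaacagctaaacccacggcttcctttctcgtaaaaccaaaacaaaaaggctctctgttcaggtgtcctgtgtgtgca
Foxp3: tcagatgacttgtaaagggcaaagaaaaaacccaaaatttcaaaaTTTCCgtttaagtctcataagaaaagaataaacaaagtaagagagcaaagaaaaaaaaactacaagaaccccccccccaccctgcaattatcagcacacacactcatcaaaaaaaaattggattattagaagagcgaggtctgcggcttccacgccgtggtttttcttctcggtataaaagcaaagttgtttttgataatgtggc
Each window held the NFAT core GGAAA 1 time, in each case on the reverse strand (TTTCC as printed), at position -190 from the start in Il2ra, -144 in Ctla4 and -205 in Foxp3. Those 5 letters occurred in 55.566% of 32851 promoter windows of the same length, counting both strands. The forkhead letters GTAAACA, present in 3.166% of windows, and the STAT letters TTCNNNGAA, present in 7.02%, were in none of these 3 windows. A match of letters is a description and not evidence of binding.

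The Foxp3+ T cells numbered 73 in the young, 62 in the aged and 52 in the aged-GA library, and their transcripts summed to 328614, 352720 and 326027 UMIs. The young cells were the shallower in genes, with a median of 3785 UMIs and 1231 genes per cell, against 4364 and 1814 in the aged and 4666 and 1821 in the aged-GA library. Ribosomal protein transcripts took a median of 37.1% of the UMIs of young Foxp3+ T cells, 21.6% of those of aged and 23.0% of those of aged-GA cells. In Foxp3-negative Cd4 T cells, passing the same limits with at least 1 Cd4 UMI, the ribosomal share was 39.9%, 29.2% and 29.4%, so the young library also stood apart in these neighbours. The libraries shared 50 to 62 barcode sequences in each pair, and no barcode was a Foxp3+ T cell in 2 libraries.

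Transcripts of other cell types were present in some of these barcodes. At least 15 UMIs over 9 myeloid genes, or at least 50 UMIs over 6 B-cell genes, marked 1 young barcode, 8 aged barcodes and 5 of the aged-GA library. The myeloid genes were Lyz2, Csf1r, Cst3, Fcer1g, Tyrobp, Ms4a6c, Ifitm3, S100a8 and S100a9. The B-cell genes were Cd74, Igkc, H2-Aa, H2-Ab1, H2-Eb1 and Ighm. These 14 barcodes held 2.70%, 30.2% and 18.9% of the UMIs of Foxp3+ T cells in the respective libraries, and the doublet caller marked 6 aged and 1 aged-GA barcodes among them and none of the other 173. The 15 monocyte markers together in Foxp3+ T cells stood at 478, 8860 and 3570 CPM (counts per 1000000 UMIs) in the order young, aged and aged-GA, with Lyz2 the most abundant in both aged libraries (1398 and 310 UMIs) and Ctss in the young (38 UMIs). Of these markers 5 were at 0 in the young library and 1 in each aged library. Without the 14 barcodes the same sum was 407, 966 and 658 CPM, against 351, 706 and 521 CPM in Foxp3-negative Cd4 T cells filtered the same way. Neutrophil markers went from 9.13, 1582 and 3018 CPM to 9.38, 244 and 182 CPM, and B-cell markers from 277, 2940 and 2561 CPM to 281, 1377 and 1229 CPM, with 12, 3 and 2 of 14 neutrophil and 6, 0 and 0 of 15 B-cell markers at 0. The 13 CD8 T and NK cell markers went from 231, 246 and 306 UMIs to 27, 76 and 133 UMIs without the 14 barcodes, so the 1 young barcode held most of the young ones. The 8 platelet markers stood at 0, 11.3 and 153 CPM (0, 4 and 50 UMIs), and at 0, 12.2 and 49.2 CPM without the 14 barcodes. Haemoglobin and other red cell genes summed to 1099, 5514 and 4150 CPM, mostly Hbb-bs, and did not fall when the 14 barcodes were left out of the aged libraries. Genes that picked the 14 barcodes, such as Lyz2, S100a9 and Cd74, are also in the monocyte, neutrophil and B-cell marker lists. A fall of those lists without the 14 barcodes was therefore set in part by the choice. Counts and values without these barcodes are given beside many of the results below.

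Foxp3+ T cells were a smaller share of all quality-passing barcodes in aged-GA than in young, and a larger share of the Cd8-negative T cells in aged than in either other library, beyond counting error. Of the barcodes that passed the limits, they were 0.874% in young (exact 95% interval 0.686 to 1.10%), 0.679% in aged (0.521 to 0.869%) and 0.480% in aged-GA (0.358 to 0.628%). Of the Cd3-positive Cd8-negative T cells, which numbered 3227, 1419 and 1804, they were 2.26% (1.78 to 2.84%), 4.37% (3.37 to 5.57%) and 2.88% (2.16 to 3.76%). The 2 denominators thus order the libraries differently: young is the highest on the first and the lowest on the second. On the log2 scale, the aged over young ratio was -0.36 (-0.88 to 0.14) for the first share and 0.95 (0.44 to 1.46) for the second. The aged-GA over aged ratio was -0.50 (-1.06 to 0.05) and -0.60 (-1.16 to -0.04), and the aged-GA over young ratio -0.87 (-1.41 to -0.33) and 0.35 (-0.19 to 0.88). Of these 6 intervals 3 hold 0, so those differences are not beyond counting error. Whether 0 was inside changed with the processing for 3 of the ratios, apart from the Foxp3 limit. For aged over young, the first share was at -0.69 (-1.33 to -0.07) with cells thinned to 2000 UMIs and at -0.54 (-1.08 to -0.02) without the 14 barcodes. For aged-GA over aged, the first share was at -0.88 (-1.51 to -0.27) when no Cd79 UMI was allowed, and the second share held 0 without called doublets, at -0.51 (-1.08 to 0.07), and when thinned, at -0.46 (-1.14 to 0.23).

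Detection of Foxp3 rested on few transcripts. Foxp3 summed to 120, 112 and 101 UMIs, and a single Foxp3 UMI was all that 52, 38 and 22 cells held in the young, aged and aged-GA libraries. When 2 Foxp3 UMIs were required, 21, 24 and 30 cells remained, which were 0.251%, 0.263% and 0.277% of quality-passing barcodes and 0.651%, 1.69% and 1.66% of Cd8-negative T cells. The first share was then not lower in either aged library, at a log2 ratio of 0.06 (-0.84 to 0.98) for aged over young and 0.14 (-0.71 to 1.02) for aged-GA over young. Between aged-GA and aged the ratio was 0.0748 for the first share and -0.0244 for the second, and both intervals held 0. The second share was higher than in young in both aged libraries, at 1.38 (0.47 to 2.30) and 1.35 (0.50 to 2.23). Holding 2 Foxp3 UMIs depends on depth, and its part in these ratios was not tested. With each cell thinned to 2000 UMIs and 1 Foxp3 UMI required, the shares of Cd8-negative T cells were 1.61%, 2.57% and 1.87%. The log2 ratio over young was then 0.67 (0.04 to 1.29) for aged and 0.22 (-0.41 to 0.83) for aged-GA, and the latter interval held 0. The gates were applied again after thinning, and the Cd8-negative class then held 3598, 1438 and 2082 cells, against 3227, 1419 and 1804 before, since a barcode can lose its CD8 or Cd79 UMIs. B cells, which should lack Foxp3, held a Foxp3 UMI in 0 of 2163 young cells (a floor of 3 cells would be 0.139%, and the exact 95% interval reaches 0.170%), 0 of 3990 aged cells (0.0752% and 0.0924%) and 2 of 4895 aged-GA cells (0.0409%, exact interval 0.00495 to 0.148%), at median depths of 3386, 3092.5 and 3751 UMIs.

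**Figure D1:**
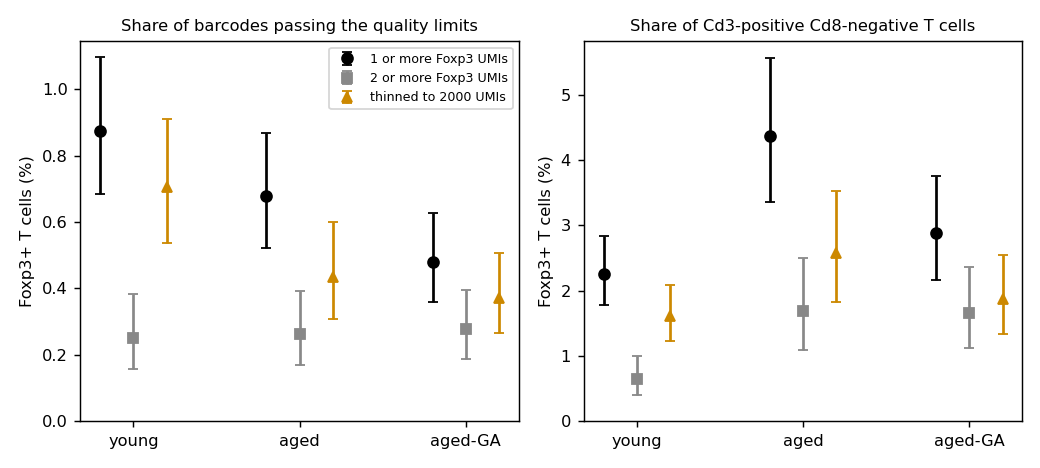
Foxp3+ T cells as a percentage of quality-passing barcodes (left) and of Cd3-positive Cd8-negative T cells (right) in the 3 libraries, with exact 95% binomial intervals for counting error. Circles require 1 Foxp3 UMI, squares 2, and triangles show cells thinned to 2000 UMIs; the aged library is the highest on the right with circles at 4.37%, and the squares of aged and aged-GA lie together at 1.69% and 1.66%.

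Just outside the rule lay barcodes with Foxp3 and a second lineage. A Foxp3 UMI occurred with exactly 1 CD8 UMI in 9 young, 5 aged and 4 aged-GA barcodes, with 2 or more CD8 UMIs in 5, 2 and 10, and with 2 or more Cd79 UMIs in 11, 10 and 25. Just inside it, 1, 3 and 14 of the counted cells held 1 Cd79 UMI. The aged-GA library therefore had the most barcodes near the Cd79 limit, and without those 14 its share of quality-passing barcodes was 0.350%. A Cd4 UMI was detected in 20 of 73, 37 of 62 and 28 of 52 cells, so Cd4 was sparse in the young library at this depth.

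The 3 other markers, which the rule did not use, were found far more often in Foxp3+ T cells than in their neighbours. Among young, aged and aged-GA Foxp3+ T cells, Ctla4 was detected in 58 (79.5%), 55 (88.7%) and 44 (84.6%), and in 23.2%, 35.2% and 41.2% of Foxp3-negative Cd4 T cells. Ikzf2 was detected in 36 (49.3%), 51 (82.3%) and 36 (69.2%) cells, against 3.27%, 22.6% and 26.2% of the Foxp3-negative cells. Il2ra was the sparsest, in 24 (32.9%), 16 (25.8%) and 14 (26.9%) cells, against 1.19%, 1.88% and 1.53%. In B cells the same genes were found in at most 2.72% of cells, the value for Ctla4 in aged-GA. Of the 187 cells, 29 held all 3 markers, 104 held 2, 39 held 1 and 15 held none, and the 15 had a median of 3479 UMIs against 5569 in the 29. Thinned to 2000 UMIs, Ikzf2 was in 33.5%, 73.3% and 55.8% of young, aged and aged-GA Foxp3+ T cells, so the order of the libraries was kept at an equal UMI total. The UMIs left for other genes were not equal, given the ribosomal shares above, and 2, 4 and 0 cells under 2000 UMIs were left out.

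Against Foxp3-negative Cd4 T cells of the same library, Foxp3+ T cells carried more of most lineage genes in every library. The 1008 young, 531 aged and 721 aged-GA comparator cells were summed per library, and edgeR's quasi-likelihood test was run with the library as a block over 8105 genes, with p-values adjusted by Benjamini-Hochberg at 0.05. Of these genes 370 rose (4.57%) and 267 fell (3.29%), 7.86% in all. The counts rest on the pairing of the 2 sums within each library: without the block 5 genes rose and none fell by edgeR, with 877 at an unadjusted p under 0.05, and DESeq2 with the block gave 168 and 103. Comparators matched to the nearest UMI total gave 86 rises and 61 falls of 4318 genes tested. With the aged-GA library left out 188 rose and 99 fell, and with the aged library left out 233 and 195. Without the 14 barcodes 280 rose and 236 fell of 7733 genes, and with a Cd4 UMI required of the Foxp3+ T cells 289 rose and 270 fell. Of 18 tested genes of the Treg identity list, 15 rose and none fell, with a median log2 fold change of 1.93 against -0.01 over all genes tested. The list was chosen with earlier results of these data known, as were all gene lists below.

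In young, aged and aged-GA Foxp3+ T cells Il2ra stood at 119, 65.2 and 64.4 CPM, and at 3.36, 4.90 and 3.97 CPM in the Foxp3-negative cells. It rose by a log2 fold change of 4.23 (edgeR adjusted p = 3.3e-07). Ikzf2 stood at 344, 907 and 659 CPM against 17.0, 123 and 139 CPM and rose by 2.87 (adjusted p = 2.9e-07). For both genes, the lowest value in Foxp3+ T cells lay above the highest in Foxp3-negative cells. Ctla4 was near level across the libraries, at 663, 683 and 693 CPM, against 86.9, 173 and 196 CPM, and rose by 2.10 (adjusted p = 1.8e-07). With comparators matched to the nearest UMI total, Ctla4 rose by 1.52 (edgeR adjusted p = 0.00018). Lrrc32, whose product GARP anchors latent TGF-beta on the cell surface, had the largest rise of the list at 5.11 (adjusted p = 2.9e-07), from 1.58, 1.22 and 1.59 CPM to 54.8, 73.7 and 52.1 CPM.

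Most receptors of the list behaved alike. Tnfrsf4, which encodes the costimulatory receptor OX40, rose by 2.23 (adjusted p = 8.6e-06), and Tnfrsf18, which encodes GITR, by 1.83 (adjusted p = 1.6e-07). Izumo1r, the folate receptor FR4 of regulatory T cells, rose by 1.14 (adjusted p = 4.8e-05) and Nrp1, the semaphorin receptor neuropilin-1, by 1.66 (adjusted p = 0.0003). Gpr83 rose by 2.40 overall (adjusted p = 0.0056) but was carried by the young library, whose cells held 29 UMIs against 8 and 1 in the aged and aged-GA libraries, and in aged-GA it stood lower than in Foxp3-negative cells, at 3.07 against 6.08 CPM. The transcription factor gene Ikzf4, which encodes Eos, rose by 2.30 (adjusted p = 0.00096) on 11, 13 and 8 UMIs. Socs2, Entpd1 and Lrig1 did not pass, at log2 fold changes of 1.56, 1.47 and 0.76, and Socs2 passed without the 14 barcodes (log2 fold change 1.71, edgeR adjusted p = 0.042).

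**Figure D2:**
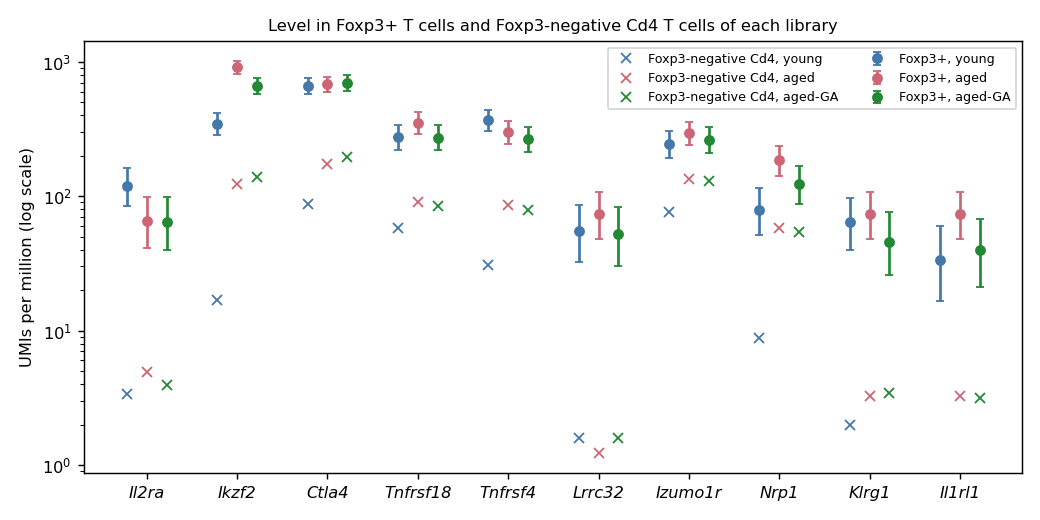
Level in CPM, on a log axis, of 10 genes in Foxp3+ T cells (circles, with 95% counting intervals) and in Foxp3-negative Cd4 T cells (crosses) of the young, aged and aged-GA libraries. All circles lie above the cross of the same library, with Il2ra at 119, 65.2 and 64.4 against 3.36, 4.90 and 3.97; Il1rl1 has no young cross because its level there was 0.

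The effector and resting programs differed in opposite directions. Of 29 tested effector Treg genes 19 rose and 1 fell, with a median log2 fold change of 1.06, and of 13 tested resting or central genes none rose and 8 fell, with a median of -0.55. Il1rl1, the receptor for interleukin 33, rose by 4.49 (edgeR adjusted p = 2.8e-05) on 11, 26 and 13 UMIs. Klrg1, a C-type lectin receptor of differentiated lymphocytes, rose by 4.26 (adjusted p = 9.9e-07), with 21 young UMIs in 3 cells, 26 aged UMIs in 11 cells and 15 aged-GA UMIs in 6 cells. Tnfrsf9, which encodes 4-1BB, rose by 3.09 (adjusted p = 0.00084), and Areg, the tissue repair ligand amphiregulin, by 2.93 (adjusted p = 0.0015). The integrin gene Itga4 was the effector gene that fell, by 0.66 (adjusted p = 0.0018).

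Among the resting genes, Tcf7 fell by 1.62 (edgeR adjusted p = 1.2e-06), Lef1 by 1.27 (adjusted p = 2.5e-06) and Satb1 by 1.13 (adjusted p = 0.00019). These 3 encode transcription factors of naive and resting T cells. Bcl2, the survival factor, fell by 1.33 (adjusted p = 0.0025), but it stood at 362 CPM in young Foxp3+ T cells against 369 CPM in young Foxp3-negative cells. Its difference lay in the aged libraries, at 102 against 515 CPM in aged and 166 against 518 CPM in aged-GA cells. Ccr7 and Klf2 fell by 0.55 and 0.41 and were the 2 resting genes no longer past the threshold without the 14 barcodes.

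**Figure D3:**
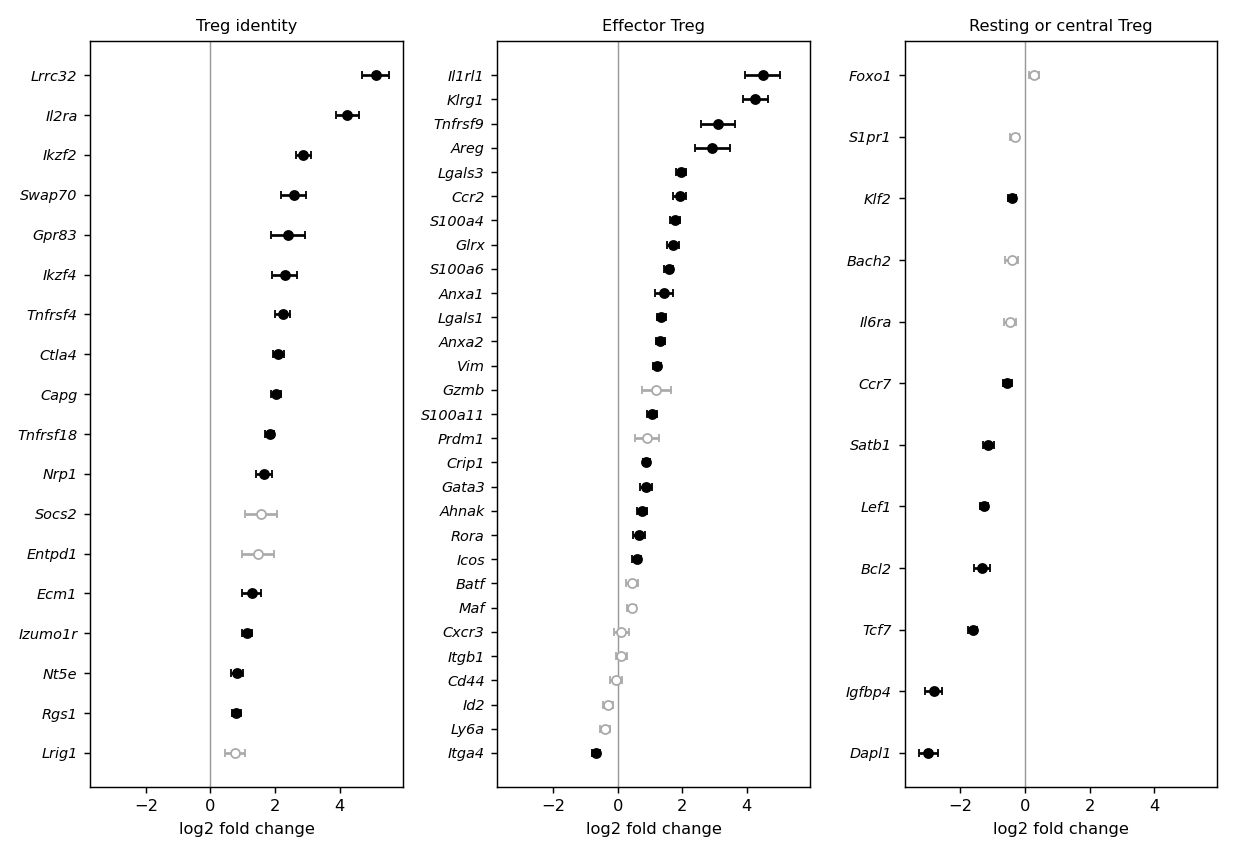
log2 fold change of Foxp3+ over Foxp3-negative Cd4 T cells, with its standard error as a bar, for tested genes of 3 lists; filled black points have an adjusted p under 0.05 (edgeR, 3 libraries with 2 sums each) and open grey points do not. The Treg identity and effector panels lie mostly right of 0, with Lrrc32 at 5.11, and the resting panel mostly left of it, with Dapl1 at -2.99.

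Other lists of the pathway were read in the same way. In the interleukin 2 list 3 of 12 genes rose and 4 fell, and 4 rose and 2 fell without the 14 barcodes, with Jak1 and Socs3 no longer past the threshold. The receptor chain gene Il2rb rose by 1.38 (edgeR adjusted p = 0.0025) and the STAT5 target Cish by 1.98 (adjusted p = 0.00021), while the interleukin 7 receptor gene Il7r fell by 1.01 (adjusted p = 8.6e-06) and Socs1, a cytokine signalling inhibitor, by 0.96 (adjusted p = 0.0054). Of 10 tested suppressive molecules, with a median log2 fold change of 1.25, 5 rose, Ctla4, Lrrc32, Lgals1, Nt5e and Tgfb1, and Tgfb1 did so only with the 14 barcodes included (log2 fold change 0.61, adjusted p = 0.036, and 0.45, adjusted p = 0.26, without them). Il10, the anti-inflammatory cytokine, had 0, 2 and 3 UMIs, too few to test. In the TNF receptor family, with a median of 0.88, 5 of 11 rose and Cd40lg, the ligand by which helper cells activate B cells, fell by 2.66 (adjusted p = 0.00036), with 5, 1 and 2 UMIs left.

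Of 29 interferon-stimulated genes 6 rose and 1 fell, and 4 rose and 1 fell without the 14 barcodes. Ifi27l2a had the lowest adjusted p among them (log2 fold change 1.06, edgeR adjusted p = 3.3e-07), at 1713, 5117 and 3650 CPM. Of 17 cell cycle genes 7 rose, and 4 without the 14 barcodes. The proliferation gene Mki67 rose by 1.96 (adjusted p = 0.0036), with 23 UMIs in 1 young cell, 22 UMIs in 11 aged cells and 15 UMIs in 6 aged-GA cells. Helper lineage factors gave 2 rises of 11, Gata3 by 0.88 (adjusted p = 0.0036) and Rora by 0.67 (adjusted p = 0.03). Chemokine receptor and homing genes gave 3 rises and 4 falls of 16, T cell receptor activation genes 3 and 2 of 16, survival genes 3 and 2 of 14, NF-kappaB genes 3 and 0 of 12, and T cell receptor and co-receptor genes 2 and 4 of 12. Without the 14 barcodes the last list gave 2 rises and 2 falls, the homing list 3 and 3, the activation list 3 and 1, the survival list 3 and 3, and the NF-kappaB list 2 and 0. Immediate early genes gave 0 rises and 2 falls of 18 and glucocorticoid-responsive genes 0 and 3 of 14. Of 5 CDK inhibitors Cdkn1c rose, by 3.47 (adjusted p = 0.00041), and it fell under the filter on low counts without the 14 barcodes.

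Lists of other cell types moved as well. With all barcodes, 9 of 12 monocyte and 6 of 10 B-cell markers rose in Foxp3+ T cells. Without the 14 barcodes 2 of the monocyte markers rose and 1 fell, while 3 B-cell markers rose. The 14 barcodes were picked in part by genes of these lists, so the lower counts were set in part by the choice. None of 11 neutrophil, 2 platelet, 3 red cell or 1 gamma-delta marker tested was past the threshold in either direction. CD8 and NK markers gave 2 rises and 2 falls of 11, and 0 and 3 without the 14 barcodes. Ighm and Cd74 stayed past the threshold without those barcodes, at log2 fold changes of 1.36 (adjusted p = 0.00095) and 1.08 (adjusted p = 0.006) by edgeR. Their part in the other results was not tested.

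By a fixed rule of size (genes past the threshold, with at least 100 UMIs and the same direction in each library, of which there were 482), the 12 largest rises outside the gate were Il2ra, Ltb4r1, Areg, Ikzf2, Swap70, 1500009L16Rik, Lxn, Ctsh, Gbp3, Mt1, Tnfrsf4 and Coro2a. Ltb4r1, the leukotriene B4 receptor, stood at 103, 39.7 and 46.0 CPM against 5.53, 5.30 and 9.78 CPM and rose by 3.07 (edgeR adjusted p = 3.7e-05). Its Foxp3+ levels without the 14 barcodes were 106, 16.2 and 18.9 CPM on 34, 4 and 5 UMIs, of which 16 young UMIs lay in 1 cell, and it still passed (log2 fold change 3.67, adjusted p = 4.1e-05). Swap70, a Rac-binding adaptor of lymphocytes, rose by 2.57 (adjusted p = 0.00019) and Coro2a, an actin-associated coronin, by 2.20 (adjusted p = 5.6e-05). The cathepsin gene Ctsh and the metallothionein gene Mt1 fell under the filter on low counts without the 14 barcodes.

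The 12 largest falls were Tdrp, Vipr1, Enc1, Auts2, Gm43581, Cxcr6, Pdlim4, Dapl1, Myo6, Igfbp4, Nudt6 and Ifng. Gm43581 and Nudt6 did not pass without the 14 barcodes (edgeR adjusted p = 0.058 and 0.073). For several of these the Foxp3+ T cells held almost no transcript, so the fitted fold depends on the prior count. Vipr1, the receptor for vasoactive intestinal peptide, had 1, 0 and 0 UMIs against 126, 40 and 86. Dapl1, a gene of naive T cells, had 17, 0 and 2 UMIs against 1421, 108 and 291, and Ifng, the interferon gamma gene, had 1, 0 and 3 UMIs against 33, 73 and 160. Igfbp4, a secreted binding protein for insulin-like growth factors, was better covered, at 143, 11.3 and 55.2 CPM against 530, 421 and 332 CPM, and fell by 2.83 (edgeR adjusted p = 2.4e-06).

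Since effector genes are shared by memory T cells, the same test was run against Foxp3-negative Cd4 T cells with an S100a4 UMI, of which there were 34, 172 and 256. S100a4 encodes a calcium-binding protein of antigen-experienced T cells, and as a gate gene it has no test here. The gate was one-sided: S100a4 was required of the comparator alone, and 10 of 73, 42 of 62 and 31 of 52 Foxp3+ T cells held it, so a gene that goes with S100a4 is set in part by the gate. Of 4512 genes 54 rose (1.2%) and 35 fell (0.776%), 1.97% in all. Without the aged library 13 rose and 11 fell, without the library block 10 and 2, and DESeq2 gave 24 and 11. The Treg identity list gave 7 rises and no fall of 13, whereas the effector list gave 2 rises and 4 falls of 25. Lrrc32 rose by 4.12, Il2ra by 3.36, Ikzf2 by 1.65 and Ctla4 by 1.52 (edgeR adjusted p = 0.00037, 0.00028, 0.00037 and 0.00075), and the effector genes that rose were Il1rl1 by 3.06 (adjusted p = 0.005) and Klrg1 by 2.48 (adjusted p = 0.0066).

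Relative to these S100a4-positive cells, the resting gene Ccr7 rose by 1.09 (edgeR adjusted p = 0.014). Tcf7 fell again, by 1.11 (adjusted p = 0.0098). Of 12 tested resting genes 2 rose and 1 fell, and 3 rose and 1 fell without the 14 barcodes. The chemokine receptor gene Cxcr6 fell by 5.27 (adjusted p = 0.00028) and the chemokine gene Ccl5 by 2.48 (adjusted p = 4.3e-05), or by 4.25 without the 14 barcodes. The integrin chains Itgb1 and Itga4 fell by 1.19 (adjusted p = 0.0087) and 1.05 (adjusted p = 0.0089). Of 21 interferon-stimulated genes 4 rose, Gbp2, Gbp7, Igtp and Ifi209, by 0.87 to 1.28, and 3 did so without the 14 barcodes. Of 6 B-cell markers 5 rose, and 1 without the 14 barcodes.

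With an S100a4 UMI required of the Foxp3+ T cells as well, a comparison added after the values had been seen, 10 young, 42 aged and 31 aged-GA cells remained. Of 3757 genes 64 rose (1.7%) and 45 fell (1.2%), 2.9% in all. Ccr7 was then at -0.33 and not past the threshold (edgeR adjusted p = 0.66), so its rise above was not seen between cells gated alike. Tcf7 fell by 1.41 (adjusted p = 0.00068), Cxcr6 by 4.17 (adjusted p = 0.00086) and Ccl5 by 3.13 (adjusted p = 0.00054). Of 10 identity genes 5 rose and none fell, and these were Ikzf2, Ctla4, Tnfrsf18, Tnfrsf4 and Capg, an actin-capping protein gene. Il2ra and Lrrc32 did not reach the filter on low counts. Of 24 effector genes 7 rose and 4 fell, against 2 and 4 of 25 with the one-sided gate. Of 11 resting genes 1 rose and 3 fell. Klrg1 rose by 3.19 (adjusted p = 0.00014) and Areg by 1.98 (adjusted p = 0.031), and the genes that fell were Itgb1, Itga4, Id2 and Ly6a. Of 11 monocyte markers 4 rose, and of 6 B-cell markers 5. Of the 83 cells 71 lay outside the 14 barcodes, and the part of the others in these counts was not tested.

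The Foxp3+ T cells were of 2 main kinds by S100a4 and Ccr7. Across the 187 cells, 83 held Ccr7 without S100a4, 63 held S100a4 without Ccr7, 20 held both and 21 neither. In the young library 51 cells held Ccr7 alone and 5 S100a4 alone. In the aged library the numbers were 14 and 35, and in the aged-GA library 18 and 23. The young library was thus mostly Ccr7-positive and the aged mostly S100a4-positive, with aged-GA between them. Thinned to 2000 UMIs, S100a4 was found in 12.02%, 64.4% and 50.7% of Foxp3+ T cells and in 2.68%, 27.0% and 29.6% of Foxp3-negative Cd4 T cells, and Ccr7 in 55.0%, 23.2% and 36.3%. Before thinning, Ccr7 was in 76.7%, 33.9% and 50% of Foxp3+ T cells and in 80.5%, 51.8% and 59.1% of Foxp3-negative Cd4 T cells. For Ccr7 the libraries thus had the same order in both classes. In B cells S100a4 was found in 1.34%, 9.52% and 5.17%.

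Some genes were found more often in the S100a4-positive than in the S100a4-negative cells, and since the libraries differ in their S100a4 share, the counts are given by library and without a test. Ikzf2 was found in 8 of 10 positive and 28 of 63 negative young cells, 37 of 42 and 14 of 20 aged cells, and 28 of 31 and 8 of 21 aged-GA cells. Icos, the inducible costimulator, was found in 8 and 6 young, 27 and 9 aged, and 23 and 7 aged-GA cells of the same totals, and Klrg1 in 2 and 1, 10 and 1, and 6 and 0. For these 3 genes the share was higher in S100a4-positive cells in each library. Itgae was found in 1 and 0 young, 12 and 4 aged, and 11 and 5 aged-GA cells, a smaller gap between the shares in each library than over all cells (24 of 83 against 9 of 104). Il2ra had no common direction, in 5 of 10 and 19 of 63 young cells but 9 of 42 and 7 of 20 aged and 5 of 31 and 9 of 21 aged-GA cells. The S100a4-positive cells were deeper, with medians of 9063 against 3632 UMIs in young, 4835.5 against 3733.5 in aged and 5038 against 4293 in aged-GA, and the part of depth in these counts was not tested. Without the 14 barcodes the Ikzf2 counts over all libraries were 63 of 71 and 49 of 102.

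**Figure D4:**
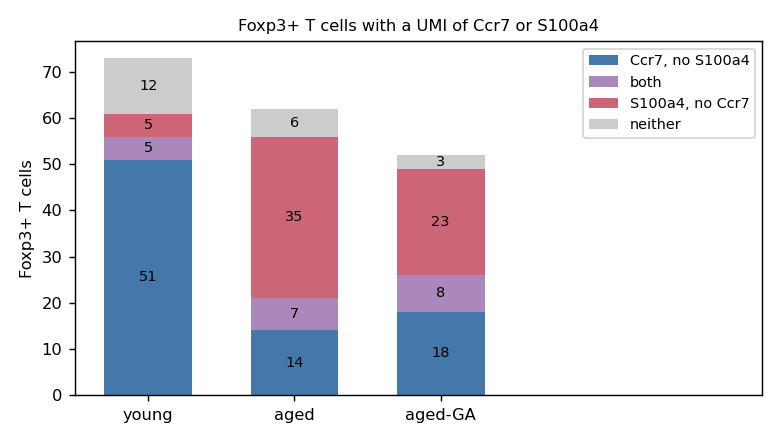
Number of Foxp3+ T cells in each library with a UMI of Ccr7 only, of both genes, of S100a4 only or of neither, as stacked bars from 0. Ccr7-only cells number 51, 14 and 18 from young to aged-GA, and S100a4-only cells are 5, 35 and 23.

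Between the aged and the young library, effector genes were higher and resting genes lower in Foxp3+ T cells. Ratios of CPM were taken for the 3123 genes whose UMIs in the pair of libraries reached 30, and 542 of these were at least 2-fold higher (17.4%) and 115 at least 2-fold lower (3.68%) in aged cells, 21.0% in all. The median log2 ratio over all of them was 0.34, so a value of that size is the general shift of the scale. The intervals of these ratios count UMIs as separate draws, so the spread between cells is left out. With TMM-scaled totals the split was 287 higher and 261 lower, and with totals that left out mitochondrial, ribosomal protein and haemoglobin genes it was 322 and 233. Of 27 effector genes 20 were at least 2-fold higher and none lower, with a median log2 ratio of 1.60 (1.48 without the 14 barcodes), and of 12 resting genes 7 were at least 2-fold lower and none higher, with a median of -1.03 (-0.90). Markers of other cell types were higher in aged cells too. At least 2-fold higher were 11 of 11 monocyte markers (median log2 ratio 4.15, and 1.13 without the 14 barcodes), 6 of 6 B-cell markers (4.58 and 2.83), 3 of 3 neutrophil markers (6.55 and 4.08) and 4 of 4 red cell markers (2.22 and 2.44). Of the 3 CD8 T and NK cell markers counted 1 was 2-fold higher, with a median of 0.14 that went to 3.26 without the 14 barcodes, where Ccl5 had 37 aged and 5 young UMIs and Nkg7 21 and 2. The part of these markers in the effector and interferon values was not tested. In Foxp3-negative Cd4 T cells of the same libraries the medians of the effector and resting lists were 2.46 and -0.20, and the difference between the 2 cell classes was not tested.

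S100a4 had 169, 929 and 481 UMIs in the young, aged and aged-GA libraries (514, 2634 and 1475 CPM). The aged over young log2 ratio was 2.36 (2.12 to 2.60) and was 2.27 without the 14 barcodes. S100a6, a relative of S100a4, had a ratio of 2.55 (2.34 to 2.76), Maf, a transcription factor of effector T cells, 2.11 (1.41 to 2.86), and Itgb1, the beta-1 integrin chain, 1.996 (1.53 to 2.49). Itgae, the CD103 integrin chain that binds E-cadherin, had 1, 39 and 24 UMIs in the same order. Its aged over young ratio of 5.18 (2.62 to 10.5) rests on that single young UMI, and 29 of the aged UMIs lay outside the admixed barcodes.

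Cxcr3, a receptor for interferon-induced chemokines, was at 0 UMIs in the young cells, 36 UMIs in 16 aged cells and 52 UMIs in 14 aged-GA cells. Against a floor of 3 UMIs for the young library, the log2 ratio was 3.48 for aged and 4.13 for aged-GA over young, and with counting error in both libraries the exact 95% lower limits were 3.11 and 3.78. The ecto-5'-nucleotidase gene Nt5e, whose product CD73 makes adenosine, had 9, 47 and 37 UMIs, a ratio of 2.28 (1.24 to 3.50) for aged over young. Among identity genes, Ikzf2 was higher in aged at 1.40 (1.09 to 1.72) and Il2ra lower at -0.86 (-1.67 to -0.08). Il2ra without the 14 barcodes was at -0.62 (-1.50 to 0.21) on 19 aged and 38 young UMIs, so its difference was then not beyond counting error. Ctla4 was at 0.04 (-0.23 to 0.31), and its sign turned to -0.32 with TMM-scaled totals and -0.26 with totals without mitochondrial, ribosomal protein and haemoglobin genes. Without the 14 barcodes it was at 0.34 (0.06 to 0.62), where the median over all genes was 0.36.

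On the resting side, Satb1 stood at 666, 159 and 178 CPM from the young to the aged-GA library, an aged over young log2 ratio of -2.07 (-2.52 to -1.64). Ccr7 went from 414 to 156 and 301 CPM, a ratio of -1.41 (-1.89 to -0.95), and Bcl2 had a ratio of -1.83 (-2.41 to -1.28), or -1.21 without the 14 barcodes. Satb1 was thus as low in aged-GA as in aged cells, whereas Ccr7 in aged-GA lay between the other libraries. Igfbp4 had 47, 4 and 18 UMIs, and its ratio of -3.66 (-5.59 to -2.21) was the lowest among the genes named by the rule of size. The 18 aged-GA UMIs came from 2 cells.

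Of 20 interferon-stimulated genes 15 were at least 2-fold higher in aged cells and none lower, with a median log2 ratio of 1.23 (1.11 without the 14 barcodes, and 0.58 in Foxp3-negative Cd4 T cells). The lower quartile was 1.01, just past the limit, and these ratios include the general shift of 0.34. Isg15 had 5, 51 and 9 UMIs, a ratio of 3.25 (1.93 to 4.93). The highest aged cell held 19 of its 51 UMIs, and 25 of the 51 lay outside the admixed barcodes. Ifi27l2a had a ratio of 1.58 (1.44 to 1.72). Of 12 glucocorticoid-responsive genes 6 were at least 2-fold lower and none higher, with a median of -0.73. That median was -0.58 without the 14 barcodes and -0.46 in Foxp3-negative Cd4 T cells. Txnip, a regulator of glucose uptake, led them at -2.09 (-2.40 to -1.78), and Tsc22d3, which encodes GILZ, followed the same direction at -1.31 (-1.69 to -0.95). Of 14 chemokine receptor and homing genes 7 were at least 2-fold higher and 1 lower, with a median of 0.98. Their median was 1.17 without the 14 barcodes and 0.73 in Foxp3-negative Cd4 T cells. The genes of the T cell receptor complex lay near the general shift, with a median of 0.20 over 13 genes.

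**Figure D5:**
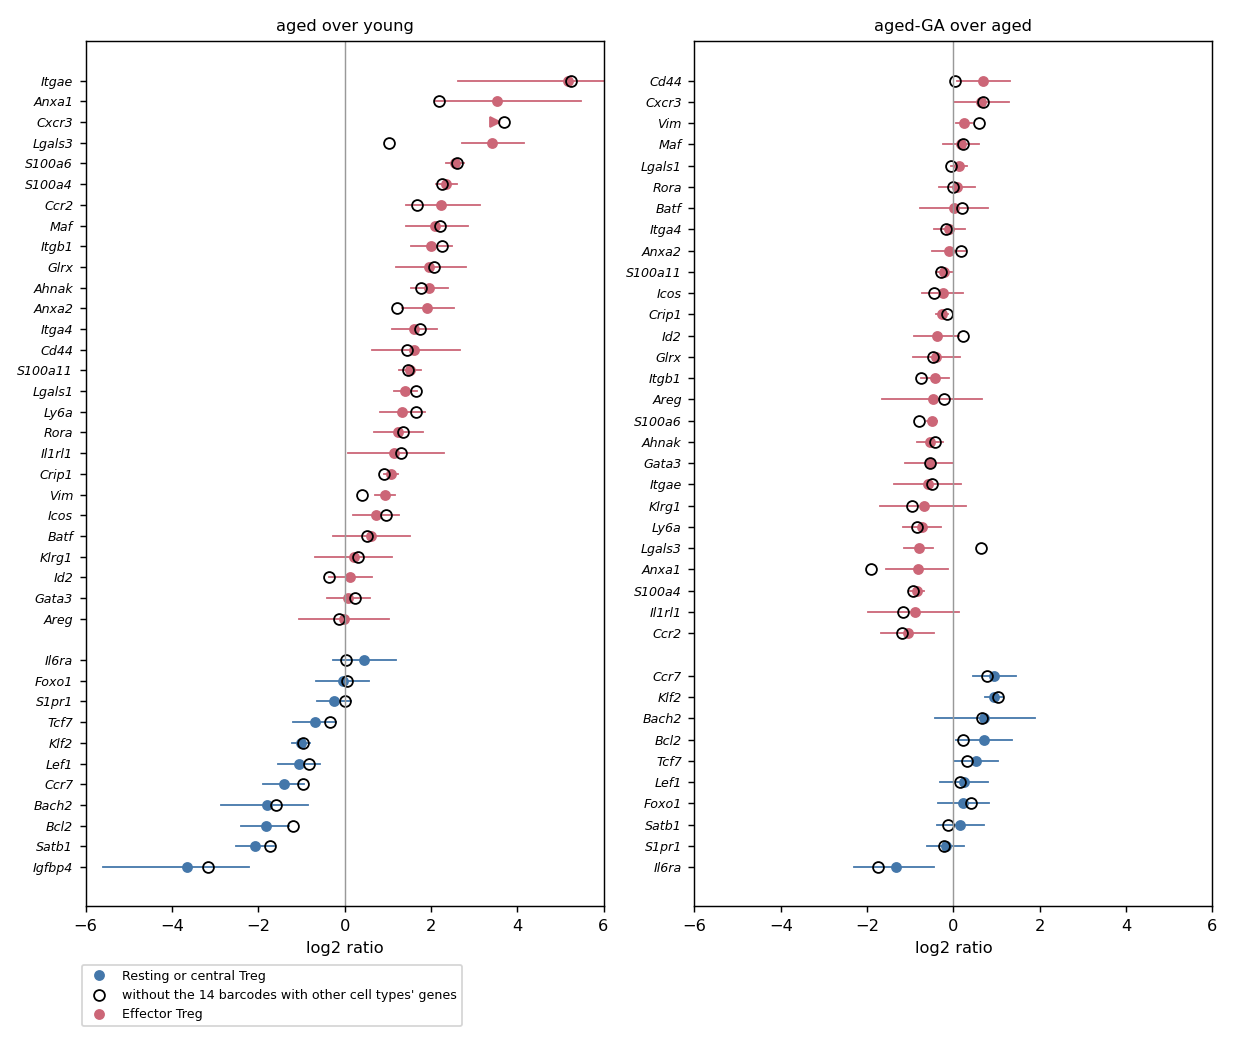
log2 ratio of CPM in Foxp3+ T cells, aged over young (left) and aged-GA over aged (right), for resting (blue) and effector (red) Treg genes, with lines for 95% counting intervals and a triangle for a lower bound; the line of Itgae runs past the axis. Open circles leave out the 14 barcodes with other cell types' genes; on the left S100a4 lies at 2.36 and Satb1 at -2.07, and on the right S100a4 lies at -0.84 and Ccr7 at 0.95.

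By the rule of size, the genes highest in aged over young were Chil3, Alox5ap, Lst1, Cybb, Itgae, Unc93b1, Apoe and Wfdc17. Except for Itgae these are mostly known from myeloid cells, and outside the 14 barcodes they kept 4, 4, 6, 23, 8, 2 and 3 aged UMIs in that order. The lowest were Igfbp4, Hist1h2ae, Sh3bp5, Hist1h1b, Hist1h2ap, Ly6c1, Itm2a and Chchd10. The replication-dependent histone genes among them were concentrated: all 65 young UMIs of Hist1h1b, 67 of 74 of Hist1h2ae and 171 of 195 of Hist1h2ap were in the single highest cell. Ly6c1, a Ly6 surface antigen, had 57, 9 and 8 UMIs and was also lower in Foxp3-negative Cd4 T cells, at -2.05. The histone and Ly6c genes have near-identical copies, between which reads could be split.

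The same rule without the 14 barcodes, applied after the values had been seen, named Itgae, Casp4, Cxcr3, Rfx1, Ccl5, Eea1, Timp2 and Fam129a as highest in aged cells. Ccl5 also belongs to the list of CD8 T and NK cell markers, which the rule does not leave out. Casp4, the inflammatory caspase gene, had 35 aged and 3 young UMIs, a log2 ratio of 3.92 (2.26 to 6.27). Ccl5 had 37 and 5 UMIs there, a ratio of 3.26 (1.91 to 4.97), although with all barcodes it stood at -0.15, where 132 young and 128 aged UMIs were counted. Of the 132, 127 lay in 1 cell, the young barcode among the 14. Igfbp4 remained the lowest, at -3.18.

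Aged-GA cells differed less from aged cells than aged from young, by the count of genes. Of 3409 genes 64 were at least 2-fold higher (1.88%) and 115 at least 2-fold lower (3.37%) in the aged-GA library, 5.25% in all. Fewer genes were lower without the 14 barcodes, without called doublets, with 2 Foxp3 UMIs required or with a pseudocount of 10 CPM. Those counts are given in the closing section. The comparison shares the aged library with the one above, so their values are not independent. The median log2 ratio over all genes was -0.05. Of 27 effector genes none was 2-fold higher and 1, Ccr2, was 2-fold lower, with a median of -0.39 (-0.30 without the 14 barcodes). Of 11 resting genes 1, Il6ra, was 2-fold lower, and the median was 0.24 (0.22).

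Individual genes of both lists had intervals without 0, counted over UMIs and without the spread between cells. S100a4 was lower in aged-GA, at -0.84 (-0.998 to -0.68), and S100a6 at -0.49 (-0.62 to -0.37). Ccr7 was higher at 0.95 (0.46 to 1.45) and Klf2, a transcription factor that drives recirculation, at 0.94 (0.74 to 1.15). These 4 kept their direction without the 14 barcodes, at -0.92, -0.79, 0.78 and 1.03. In Foxp3-negative Cd4 T cells the same ratios were -0.16, -0.67, 0.18 and 0.32. Ikzf2 was lower in aged-GA at -0.46 (-0.72 to -0.21), and Il2ra and Ctla4 lay at -0.02 (-0.94 to 0.90) and 0.02 (-0.25 to 0.29).

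Of 22 interferon-stimulated genes 5 were at least 2-fold lower in aged-GA and none higher, with a median of -0.55, which was -0.13 without the 14 barcodes. Isg15 had a log2 ratio of -2.39 (-3.60 to -1.35), or -1.75 on 8 and 25 UMIs outside those barcodes. Monocyte markers were also lower, 7 of 11 by at least 2-fold with a median of -1.14 (-0.84 without the 14 barcodes). Of 5 neutrophil markers 2 were at least 2-fold higher, with a median of 0.53 (-0.22), and 3 CD8 T and NK cell markers had a median of 0.35 (0.59) with none past 2-fold. Of 10 cell cycle genes 3 were at least 2-fold higher, Birc5, Stmn1 and Top2a. Without the 14 barcodes Stmn1 was at 0.87 (0.22 to 1.56), on 59 aged-GA and 30 aged UMIs. Transcripts of Birc5 and Top2a were concentrated in few cells, with 19 of the 25 aged-GA UMIs of Top2a in 1 cell. Birc5, a gene of dividing cells, had 33 aged-GA UMIs in 2 cells against 2 aged UMIs in 2 cells, and 46 of the 48 aged-GA UMIs of Hist1h1b and 30 of the 32 of the PCNA-associated factor gene Pclaf were in a single cell.

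The rule of size named Ms4a4c, F13a1, Clec4a3, Bloc1s1, Fn1, Ifi207, Mgst1 and Isg15 as lowest and Gng11, Birc5, Nrgn, Pclaf, Hist1h1b, Ctla2a, 1500009L16Rik and Ifitm1 as highest in aged-GA over aged. Ms4a4c, F13a1, Clec4a3, Fn1, Ifi207 and Mgst1 kept at most 3 aged and no aged-GA UMIs outside the 14 barcodes, so no fold is given for them there. Of the higher genes, Gng11, Nrgn, Ctla2a and Ifitm1 had 34, 29, 84 and 26 aged-GA UMIs, of which 13, 10, 34 and 1 lay outside them. Platelet markers were higher in aged-GA too, at 153 CPM against 11.3 CPM in aged cells. Without the 14 barcodes they stood at 49.2 and 12.2 CPM, and their part in the higher genes was not tested. Bloc1s1, a subunit of a lysosome biogenesis complex, had 11, 27 and 3 UMIs, spread over 10, 22 and 2 cells. Its ratio was -3.06 (-5.42 to -1.36), and -2.69 without those barcodes. Applied without the 14 barcodes after the values had been seen, the rule named Pclaf, Hist1h1b, Plac8, Top2a, 1500009L16Rik, Hmgn1, Tuba1b and Tubb4b as highest, and Isg15, Akirin1, Gstp1, Smg6, Unc13d, Eif3b, Ist1 and Kdm5b as lowest.

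The aged-GA library was also set against the young, which the first comparison of groups uses too, so the values of the 2 are not independent. Of 2926 genes 355 were at least 2-fold higher (12.1%) and 71 at least 2-fold lower (2.43%), 14.6% in all, with a median log2 ratio of 0.29. Of 24 effector genes 17 were at least 2-fold higher with a median of 1.46, of 12 resting genes 4 were at least 2-fold lower with a median of -0.64, and of 17 interferon-stimulated genes 6 were at least 2-fold higher with a median of 0.89. Also at least 2-fold higher were 9 of 9 monocyte, 6 of 6 B-cell, 4 of 4 neutrophil and 4 of 4 red cell markers, with medians of 2.78, 4.22, 6.18 and 1.95 (0.69, 2.31, 2.37 and 1.9998 without the 14 barcodes). With TMM-scaled totals 176 genes were higher and 172 lower. Gpr83 was the lowest of the named genes, with 1 aged-GA against 29 young UMIs, a ratio with a wide interval (-4.85, -10.2 to -2.25). The other named lower genes were Tubb2a, Ly6c1, Slc35d1, Mt1, Sgpp1, Id3 and Atp1b1. Id3, an inhibitor of helix-loop-helix factors, had 69 young and 13 aged-GA UMIs, a ratio of -2.40 (-3.38 to -1.53).

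The named higher genes were Alox5ap, Chil3, Cxcr3, Apoe, Hp, Cybb, Ifitm2 and Gng11. All 52 aged-GA UMIs of Cxcr3 lay outside the 14 barcodes, whereas Chil3 and Hp kept none there and Alox5ap and Ifitm2 kept 1 each. Gng11 kept 13 of its 34 aged-GA UMIs. All 8 platelet markers were at 0 in young cells and all 8 were detected in aged-GA cells, with 50 UMIs, or 13 without the 14 barcodes. Their part in the named genes was not tested. The rule without those barcodes, again applied after the values had been seen, gave Cxcr3, Nkg7, Ccl5, Il18r1, Timp2, BE692007, Cldnd1 and Tgif1, of which Nkg7 and Ccl5 are CD8 T and NK cell markers. Il18r1, a chain of the interleukin 18 receptor, had 36 aged-GA against 3 young UMIs, a log2 ratio of 3.86 (2.20 to 6.20). The lower genes by that rule were Tubb2a, Cxcl2, Sertad1, Ly6c1, Ltb4r1, Sgpp1, Slc35d1 and Ecm1.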

How the data were processed

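Raw UMI counts per gene and barcode were deposited for 3 libraries of the 10x 3' chemistry. The authors made these counts with Cell Ranger (5.0.0 per the file headers) on build mm10 per the labels, and the gene annotation is not given in the sources used here. The study's methods state another Cell Ranger version than the headers. Totals were 58894294, 82260961 and 98155671 UMIs over 10842, 16038 and 17332 barcodes. From these counts, cells were selected and summed per library and class with Python 3.11.15. Foxp3+ T cells were compared with Foxp3-negative Cd4 T cells by edgeR 4.0.16 (quasi-likelihood, TMM, library as block, 2 residual degrees of freedom, Benjamini-Hochberg at 0.05), leaving out genes of the gates. On simulated data the test recovered 77% of genes changed by 1 and 99% of those changed by 2 on the log2 scale, with 8 false calls among 8129 genes. The changed genes were drawn only from those at or above the median total count. No library effect and no admixed barcodes were simulated, so these rates need not hold for the real data. With 1 library per group no test between groups was made. Ratios of CPM used genes that reached 30 UMIs in the pair, a fold of 2, exact binomial intervals and, for a library at 0, a floor of 3 UMIs per library. These binomial intervals treat UMIs as independent draws, also where many come from 1 cell. Scrublet's automatic threshold marked no barcode in the aged-GA library, so the top 5% of scores in each library were used as doublets, and doublets were not removed. Genes were named by list, and by size: the 12 largest changes each way between cell classes, with at least 100 UMIs and 1 direction in every library, and the 8 largest each way between groups, with 50 CPM in 1 library and an interval without 0, leaving out genes of ribosomal proteins, haemoglobins, mitochondria, immunoglobulins and T cell receptor segments and, between groups, markers of B cells, monocytes, neutrophils, platelets and red cells (markers of CD8 T and NK cells were not left out). Members, lists and tests were chosen with earlier results of these data known. A resting gene is counted in its lists but is not reported here by name.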

Additional observations from a re-analysis of the deposited data

Results flagged for a closer look

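Foxp3 transcripts also appeared in Cd3-positive Cd8-positive T cells, which the comparisons above leave out. A Foxp3 UMI was found in 14 of 2101 such cells in the young library (0.666%, exact 95% interval 0.365 to 1.12%), in 7 of 918 in the aged (0.763%, 0.307 to 1.56%) and in 14 of 1772 in the aged-GA library (0.790%, 0.433 to 1.32%). These shares lay above those of B cells, which were 0, 0 and 0.0409%, and the intervals of the 3 libraries overlap. The Cd8-positive cells were the deeper, with medians of 5897, 5671 and 7197.5 UMIs against 3386, 3092.5 and 3751 in B cells, and the part of depth and of doublets in the difference was not tested.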

How the results depend on the processing

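Requiring 2 Foxp3 UMIs gave 0.251%, 0.263% and 0.277% of quality-passing barcodes and 0.651%, 1.69% and 1.66% of Cd8-negative T cells in young, aged and aged-GA, with log2 ratios of 0.0748 and -0.0244 for aged-GA over aged and 0.14 (against -0.87) and 1.35 for aged-GA over young. It left 222 genes higher between the cell classes, and past 2-fold 164 higher and 65 lower in aged over young, 41 lower in aged-GA over aged, and 201 higher and 40 lower in aged-GA over young. Thinning to 2000 UMIs gave 1.61%, 2.57% and 1.87% of T cells and 0.435% of aged barcodes, and allowing no Cd79 UMI gave 0.350% of aged-GA barcodes.

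Against Foxp3-negative Cd4 T cells, DESeq2 gave 168 genes higher and 103 lower, no library block 5 and 0 (877 at an unadjusted p under 0.05), and no filter 432 lower. Comparators matched to the nearest UMI total gave 86 and 61 of 4318 genes tested. Leaving out 1 library gave 188 to 389 higher and 99 to 287 lower, the fewest without aged-GA. Against S100a4-positive cells, DESeq2 gave 24 and 11, no filter 94 and 92, no library block 10 and 2, and leaving out 1 library 13 to 74 and 11 to 52, the fewest without aged. An S100a4 UMI required of both classes, added after seeing the data, turned Ccr7 from a log2 fold change of 1.09 to -0.33 (edgeR adjusted p = 0.66; 0.014 with the one-sided gate).

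Past 2-fold, a minimum of 100 UMIs left 109 higher and 49 lower in aged over young, 8 and 14 in aged-GA over aged, and 69 and 18 in aged-GA over young. TMM-scaled totals gave 287 and 261 in the first and 176 and 172 in the last, and totals without mitochondrial, ribosomal protein and haemoglobin genes gave 322 and 233, and 205 and 142. For aged-GA over aged, a pseudocount of 10 CPM gave 37 and 61, leaving out doublets 74 lower, and leaving out the 14 barcodes, chosen after seeing the data, 66 lower. Of the values of main results under the alternatives, 147 stayed within their limits, 37 moved, 16 were weaker, 3 were stronger and 1 was reversed. A value within its limits could still change its reading. Thinned to 2000 UMIs, the aged-GA over aged log2 ratio of the share of Cd8-negative T cells was -0.46 (-1.14 to 0.23). It counted as within its limits, against -0.60 (-1.16 to -0.04) in the main setting. The causes were not tested. No paired analysis was possible because each group has a single library; the library block pairs cell classes within a library. Sparse genes rested on few UMIs per library, such as 39, 23 and 21 for Il2ra and 120, 112 and 101 for Foxp3.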
